A study of Homo sapiens with 5 samples.

Results

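The genes described are 10 genes of the endolysosomal Toll-like receptor system and of the related surface receptor CD180, out of 18417 genes measured. They were taken by symbol (CD180, LY86, TASL, SLC15A4, PLD4, PLD3, TLR7, TLR9, UNC93B1 and IRF5), each read through its brightest probe set on average, and all 10 were found. The group was chosen from the contrast between the arrays, in which some of these genes were already known to differ, so their differences are given as a description with no test. RNA of 5 stable clones of Nalm6, a line from a human acute lymphoblastic leukaemia of B-cell precursors, was hybridised to Affymetrix whole-transcript arrays. Controls were 2 clones with a nonsense short hairpin RNA (shRNA), a hairpin meant to silence no gene, and the other 3 clones carried an shRNA against MondoA, a glucose-responsive transcription factor encoded by MLXIP. Every clone gave 1 array, and all were grown in RPMI medium with 20% serum and 200 mg/dl glucose. The spread within a group is therefore the spread between clones of this single line.

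Toll-like receptors 7 and 9 recognise RNA and DNA inside endolysosomes, the acidic compartments in which engulfed material is broken down. The membrane protein UNC93B1 carries them there from the endoplasmic reticulum. Endolysosomal exonucleases of the phospholipase D family, PLD3 and PLD4, trim single-stranded nucleic acids and so limit the ligands of these receptors. The transporter SLC15A4 holds the adaptor TASL at the endolysosome, where TASL recruits the transcription factor IRF5. CD180 is a surface relative of the Toll-like receptors that lacks their signalling domain, is found on B cells and needs the secreted partner MD-1, encoded by LY86.

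The 4 genes that read at least 1 log2 unit higher with the MondoA shRNA were CD180, LY86, TASL and PLD4, and the sequences before their annotated starts are shown because they read higher together. PLD3, the relative of PLD4 that read alike in both groups, is shown for contrast. Each line gives the 250 bases before the first start listed by RefSeq, on build GRCh38.p14, read towards the gene. Capitals mark matches to the motifs searched.
CD180, chr5:67196800-67197049, minus strand: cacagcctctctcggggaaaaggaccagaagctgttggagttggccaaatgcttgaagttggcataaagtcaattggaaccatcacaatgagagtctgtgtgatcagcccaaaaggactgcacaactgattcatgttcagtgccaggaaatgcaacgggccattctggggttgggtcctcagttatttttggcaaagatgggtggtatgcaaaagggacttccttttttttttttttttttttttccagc
LY86, chr6:6588470-6588719, plus strand: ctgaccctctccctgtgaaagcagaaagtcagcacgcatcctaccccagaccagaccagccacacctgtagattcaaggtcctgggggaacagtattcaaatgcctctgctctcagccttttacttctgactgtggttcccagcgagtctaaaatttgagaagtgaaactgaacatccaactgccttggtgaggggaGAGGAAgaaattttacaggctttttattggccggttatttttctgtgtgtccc
TASL, chrX:30577767-30578016, minus strand: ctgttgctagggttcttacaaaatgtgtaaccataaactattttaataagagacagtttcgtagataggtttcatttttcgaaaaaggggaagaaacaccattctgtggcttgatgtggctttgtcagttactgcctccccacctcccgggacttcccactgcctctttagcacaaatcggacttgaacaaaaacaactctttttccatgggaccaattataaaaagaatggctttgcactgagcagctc
PLD4, chr14:104924629-104924878, plus strand: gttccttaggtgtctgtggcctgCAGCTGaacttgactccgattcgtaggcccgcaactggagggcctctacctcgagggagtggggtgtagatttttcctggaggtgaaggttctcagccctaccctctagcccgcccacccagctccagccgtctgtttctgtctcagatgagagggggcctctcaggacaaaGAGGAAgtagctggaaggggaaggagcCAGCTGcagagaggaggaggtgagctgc
PLD3, chr19:40348445-40348694, plus strand: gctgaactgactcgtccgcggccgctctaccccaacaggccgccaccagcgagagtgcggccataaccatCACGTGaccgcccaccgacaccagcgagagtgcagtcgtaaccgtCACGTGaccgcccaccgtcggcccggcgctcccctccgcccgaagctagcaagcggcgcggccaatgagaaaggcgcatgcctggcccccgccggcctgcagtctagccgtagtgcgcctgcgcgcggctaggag

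A promoter was found for 8 of the 10 genes, and the windows of 250 bases of 35116 promoters served for comparison. The letters searched on both strands were CACGTG, the core E-box read by MondoA with its partner MLX and by other factors of that class, CAGCTG, an E-box read by E proteins, GAGGAA, a core read by ETS factors such as PU.1, the octamer ATGCAAAT and the interferon regulatory factor motif, GAAA and GAAA around 2 bases of any kind. CACGTG was in none of the windows of CD180, LY86, TASL and PLD4, nor in those of SLC15A4, TLR9 and IRF5. It occurred 2 times in that of PLD3, from base -180 to -175 and from -135 to -130 before the start, and 6.35% of all promoters held it. GAGGAA, held by 23.6% of promoters, lay at -53 to -48 in LY86, at -55 to -50 in PLD4 and 2 times in TLR9, at -136 to -131 and -7 to -2. CAGCTG, held by 14.0%, occurred 2 times in PLD4 and 1 time in IRF5, at -24 to -19. Neither CD180, TASL nor SLC15A4 had a match to any motif searched. TLR9 held the octamer, found in 1.63% of promoters, and the interferon regulatory factor motif, found in 3.02%, was in none of the 8 windows. A match is a run of letters and was not tested as a binding site.

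The windows also differed in CpG content, the observed number of CG pairs over that expected from the C and G content. This ratio was 0.163 in CD180, 0.206 in LY86, 0.372 in TASL and 0.279 in PLD4, all below the median of 0.558 over all promoters. It was 0.822 in SLC15A4, 1.07 in PLD3 and 0.604 in IRF5. TLR9, with no CG pair in its window, also had a low ratio, so a low ratio was not limited to the 4 genes.

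**Figure D1:**
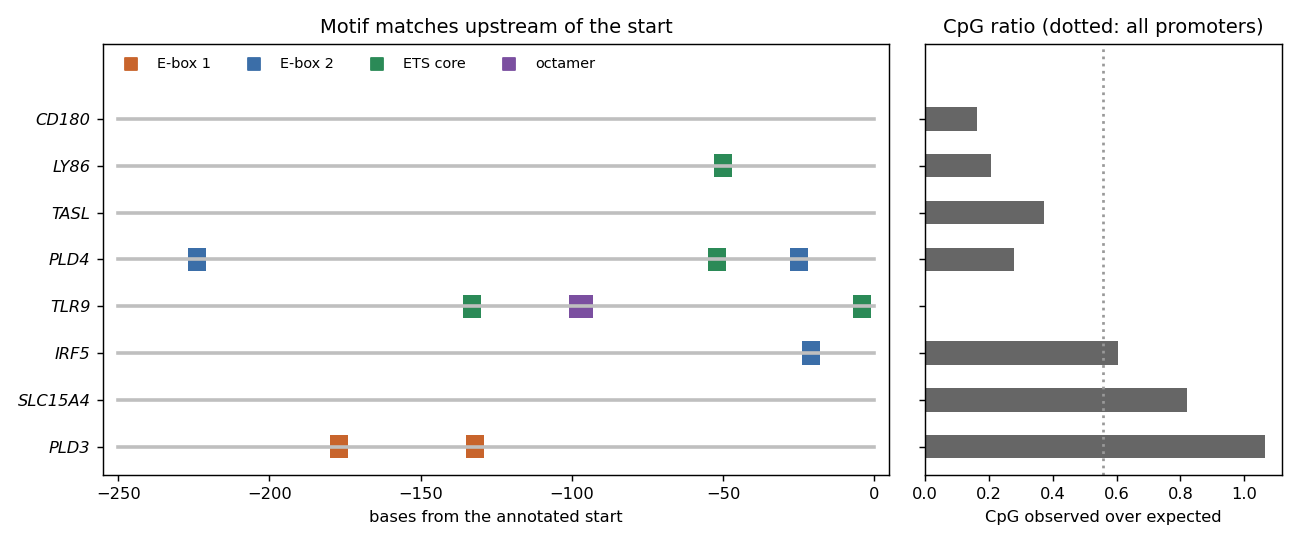
Motif matches (left, in bases from the annotated start, which is at 0) and CpG observed over expected (right) in the 250 bases before the start of 8 genes. E-box 1 is CACGTG and E-box 2 is CAGCTG; the dotted line is the median of all promoters, 0.558, and the 4 genes at the top all lie below it.

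Levels are given as log2 values from RMA, an array summary method, in which 1 unit is a doubling. Errors of means are SD over 2 control and 3 MondoA shRNA clones, and errors of differences are limma's moderated SE. The hairpin's target, MLXIP, had the level 6.42 in each control clone, and clones 1, 2 and 3 with the MondoA shRNA read 6.42, 6.47 and 6.29. Its difference was -0.03 ± 0.06 (SE; limma, adjusted p = 0.959). Both controls and labelled clone 1 held an equal value, so this difference is partly a tie and does not show a lack of change. Lower target RNA was not detected, and the clones are called the arrays labelled MondoA shRNA. Of 14 B-precursor markers 12 were measured, and none had a mean below the median gene level of 4.15, from RAG1 at 4.85 to MME at 10.4. This describes signal only, since no detection call was used and levels of different probe sets are not on one scale. Of markers of plasmacytoid dendritic cells 5 of 6 lay below that level, of monocytes and macrophages 9 of 10 and of T and NK cells 8 of 10. The highest in each were SPIB at 5.13, CD68 at 5.30 and NKG7 at 6.46, and the lowest were IL3RA at 2.44, CD163 at 2.35 and TRAT1 at 2.19. Array 2 of the labelled group read highest of the 3 in 58.3% of the 6316 brighter genes with 3 distinct values, and in 5 of the 10 genes described. In these cultures fewer cells with a transcript and less of it per cell cannot be told apart.

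The genes split into some that read higher with the MondoA shRNA and some that barely differed. TASL, PLD4, CD180 and LY86 differed by 1.21 to 1.76 log2 units, and the other 6 by -0.03 to 0.23. In each of the 4, every labelled array read above both control arrays, and the 6 differences between a labelled and a control clone ran from 0.69 to 2.13 over the 4 genes. Over all 18417 genes, 0.0869% (16 genes) differed by at least 1 in that direction, and 4.85% had groups that did not overlap with the labelled arrays higher, as 5 of the 10 genes did. These genes were chosen from this contrast, so nothing is read from that comparison. The median difference was 0.17 over the 10 genes and 0.00 over all genes.

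**Figure D2:**
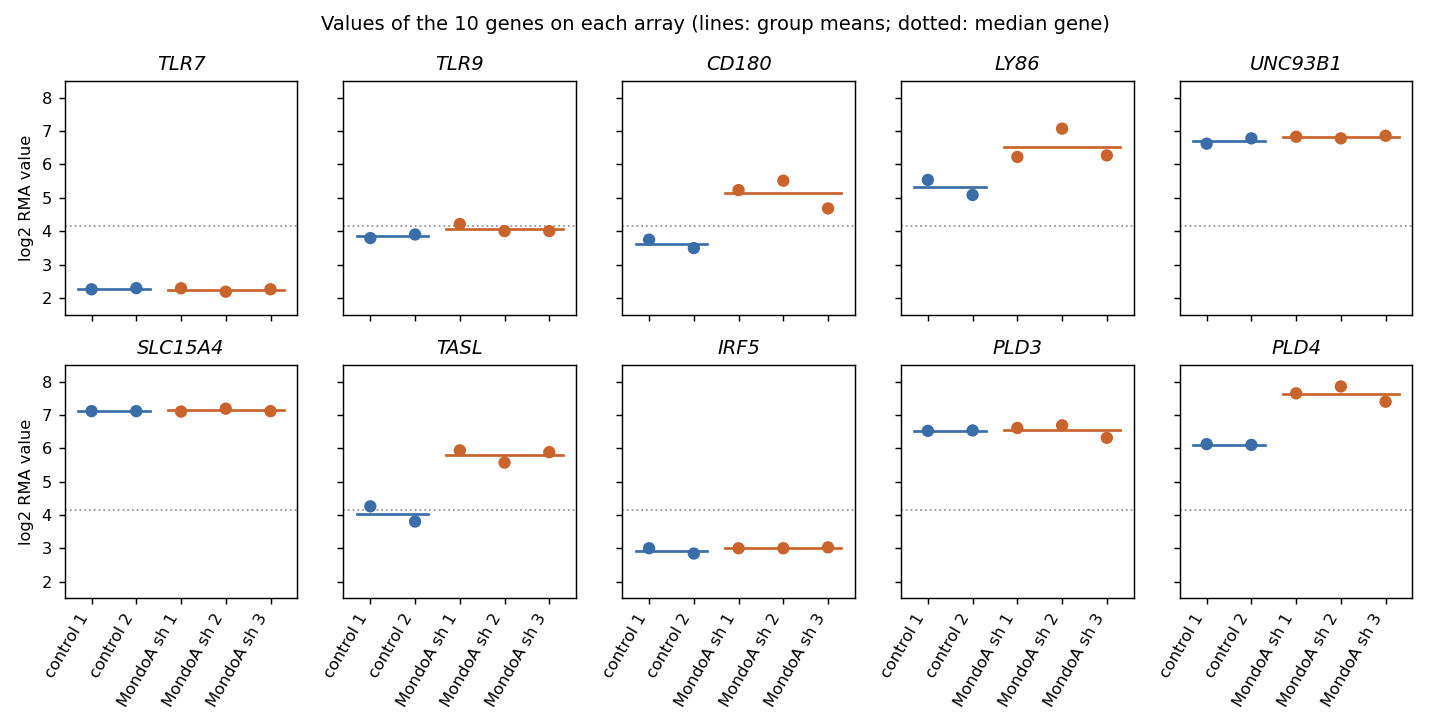
Values of the 10 genes on each array (log2 RMA; points are arrays, horizontal lines group means, and the dotted line is the median gene level of 4.15). CD180, LY86, TASL and PLD4 have every MondoA shRNA array (orange) above both control arrays (blue), and so has TLR9, with a gap of 0.10. SLC15A4, PLD3, UNC93B1, TLR7 and IRF5 have groups that overlap.

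Among the receptors, CD180 had levels of 3.75 and 3.49 in the controls (clone 1, then clone 2), against 5.23, 5.51 and 4.68 in labelled arrays 1, 2 and 3. The labelled arrays all lay above the controls, with array 3 the lowest of them and 0.94 above the nearer control. The group means were 3.62 ± 0.18 and 5.14 ± 0.42, a difference of 1.52 ± 0.30 (SE), or 2.87-fold. The control mean lay below the median gene level. LY86, whose product MD-1 is required for CD180 to reach the cell surface, read 5.54 and 5.09 in control and 6.23, 7.07 and 6.27 in the labelled arrays. The groups were again apart, with array 2 well above the other labelled arrays and the nearest clones 0.69 apart. Its means were 5.31 ± 0.32 and 6.52 ± 0.48, a difference of 1.21 ± 0.36 (SE), or 2.32-fold, and 0.94 without array 2. The RNA of both genes thus read higher in the same arrays, and their proteins were not measured here.

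The nucleic acid receptors themselves showed smaller differences, read at low signal. TLR7, the receptor for single-stranded RNA, read 2.26 and 2.29 in control and 2.29, 2.19 and 2.26 in the labelled arrays, with overlapping groups and a difference of -0.03. These are among the lowest values on the arrays, with 3.30% of genes below its mean. TLR9, the receptor for DNA rich in unmethylated CG pairs, read 3.793 and 3.902 in control and 4.215, 4.004 and 4.004 in the labelled arrays. The groups did not overlap, but the gap between the nearest arrays was 0.10 and the difference 0.23 ± 0.09 (SE), or 1.17-fold. Both genes had means below the median gene level, and no detection call was used here, so whether either transcript was present was not assessed.

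UNC93B1, the carrier of both receptors, read 6.62 and 6.78 in control and 6.83, 6.78 and 6.86 in the labelled arrays. Control array 2 and labelled array 2 shared the same value, and the difference was 0.12 ± 0.06 (SE). It was the only gene of the 10 with further probe sets, and these disagreed with the first. The 2 others read 6.31 and 6.35 in control array 1, 6.41 and 6.48 in control array 2, 6.78 and 6.86 in labelled array 1, 5.79 and 5.79 in array 2, and 6.31 and 6.35 in array 3. They ran parallel to each other and parted from the first probe set most in labelled array 2, where they were lowest. In labelled array 3 they equalled control array 1, while the first probe set was highest there. The differences of these 2 probe sets were -0.07 and -0.08. RefSeq lists pseudogenes named after UNC93B, and which loci each probe set reads was not tested, so the level of this gene is uncertain.

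TASL read higher in the labelled arrays, and no such difference was read for its anchor SLC15A4. TASL, on chromosome X, read 4.26 and 3.81 in control and 5.94, 5.57 and 5.88 in the labelled arrays. The nearest clones of the groups were 1.31 apart, the widest gap of the 10 genes. The means were 4.03 ± 0.32 and 5.80 ± 0.20, a difference of 1.76 ± 0.21 (SE), or 3.40-fold, and 3 genes of all 18417 had a higher difference. SLC15A4 had the level 7.11 in either control and 7.10, 7.19 and 7.11 in the labelled arrays, with 3 arrays holding the same value. Its difference was 0.02 ± 0.03 (SE), which is partly a tie and does not show a lack of change. IRF5, the factor at the end of this branch, read 3.004 and 2.846 in control and 3.004, 3.004 and 3.031 in the labelled arrays. It too gave 1 value in 3 arrays, lay below the median gene level and differed by 0.09 ± 0.06 (SE). This small difference does not show a lack of change either.

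The exonuclease genes also parted. PLD4, on chromosome 14, read 6.12 and 6.10 in control and 7.65, 7.85 and 7.40 in the labelled arrays. The control clones were nearly equal and every labelled clone stood at least 1.27 above them. The means were 6.11 ± 0.02 and 7.63 ± 0.23, a difference of 1.52 ± 0.16 (SE), or 2.87-fold, with both groups above the median gene level. PLD3, on chromosome 19, read 6.52 and 6.54 in control and 6.61, 6.69 and 6.31 in the labelled arrays. The labelled clones lay on both sides of the controls and the difference was 0.01 ± 0.14 (SE). The differences of PLD4 and PLD3 were not tested against each other, since the genes were chosen from this contrast.

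The 4 higher genes did not share a single order among the labelled clones. Array 2 was the highest for CD180, LY86 and PLD4 and the lowest for TASL. Array 3 was the lowest for CD180 and PLD4. Control array 1 read above control array 2 in all 4, by least in PLD4. Likeness was measured as the distance between the 5 centred log2 values of each gene, over genes above the median level, where 0 means the same profile. CD180 and PLD4 were near each other at 0.32, CD180 and LY86 at 0.60, TASL and PLD4 at 0.70, and TASL and LY86 at 1.13. The gene nearest to PLD4 was ICAM3, an adhesion molecule of leukocytes, at 0.29, and it was also nearest to TASL at 0.50 and next after PLD4 for CD180 at 0.49. FCRLA, an intracellular Fc receptor-like protein of B cells, was next nearest to TASL at 0.55 and lay at 0.43 from PLD4. ICAM3 differed by 1.47 and FCRLA by 1.42, so genes of like size of difference were favoured by this measure.

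**Figure D3:**
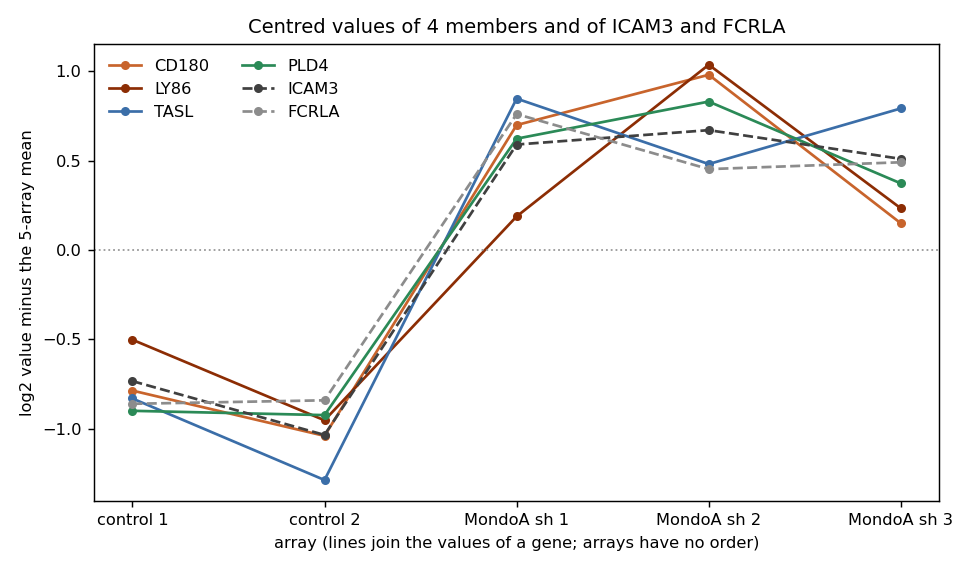
Log2 values minus the mean of the 5 arrays for CD180, LY86, TASL and PLD4 (solid) and for ICAM3 and FCRLA (dashed), by array. All 6 lie below 0 in both control arrays and above 0 in all 3 MondoA shRNA arrays, while LY86 peaks in array 2 and TASL dips there.

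The 4 genes lie on 4 chromosomes (5, 6, X and 14), and the genes beside them showed small differences. Of the 3 measured genes on either side of each, ordered by RefSeq, differences ran from -0.16 to 0.04 around CD180, from -0.26 to 0.05 around LY86, from -0.11 to 0.04 around TASL and from -0.01 to 0.24 around PLD4. Among these 24 genes the groups were apart in 1, against 4.85% of all genes apart higher and 5.18% apart lower. That gene was CDCA4 near PLD4, a cell cycle gene chosen here after its value was seen. Most genes beside TASL and PLD4 had means below the median gene level, so their small differences do not show a lack of change. LY86-AS1, a non-coding gene whose span overlaps the start of LY86, differed by -0.09.

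Other genes of the pathway were taken from 8 lists with 128 genes, of which 115 were measured. None passed the adjusted threshold of 0.05 in limma, where 0.0% of all genes did. An unadjusted limma p under 0.05 was reached by 4 of them, 2 with higher and 2 with lower levels, against 3.73% of all genes (1.55% higher, 2.18% lower). Their median difference was 0.01, and the groups were apart in 10 genes with the labelled arrays higher and in 5 with them lower, against 4.85% and 5.18% of all genes. The 4 genes at an unadjusted p under 0.05 became 8 without control array 2 and 8 without labelled array 2, and LYN alone of the 4 stayed among them whichever array was left out. With the replicate number as a block, which pairs clones by number alone, 1 gene reached that p, HSP90B1, and not LYN. Without control array 1, 1 pathway gene passed the adjusted threshold and without control array 2, 2 did, a fit that takes the spread of the single control from the labelled clones.

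Of the other Toll-like receptors, 6 of 8 were measured, and 1 stood at an unadjusted p under 0.05. TLR3, the endosomal receptor for double-stranded RNA, read 4.12 and 4.09 in control and 4.33, 4.59 and 4.61 in the labelled arrays, a difference of 0.40 ± 0.10 (SE; limma adjusted p = 0.833). The surface receptor genes TLR1 and TLR4, named after their values were seen, differed by 0.15 (-0.03 without labelled array 2) and -0.16. TLR2, TLR6 and TLR8 differed by 0.01, 0.05 and 0.08. TLR2 and TLR6 each held 1 value on 3 arrays and TLR8 on 4, so their differences do not show a lack of change. Of the partners and chaperones, 9 of 10 were measured and 0 stood at an unadjusted p under 0.05 in limma. CNPY3, a chaperone that Toll-like receptors need to leave the endoplasmic reticulum, was chosen after its values were seen. It read 9.36 and 9.07 in control and 9.53, 10.1 and 9.65 in the labelled arrays, with a difference of 0.54 ± 0.23 (SE) and the highest value in array 2. HSP90B1, the chaperone that works with it, differed by -0.14. Without labelled arrays 1, 2 and 3 in turn it differed by -0.08, 0.00 and -0.33.

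The lists around cleavage, trafficking and nucleases had medians of 0.02 and 0.00. In processing and trafficking, 18 of 21 genes were measured, and 1, with a lower level, stood at an unadjusted p under 0.05. This was HPS4, a subunit of a complex for lysosome-related organelles, at -0.25 ± 0.07 (SE; limma adjusted p = 0.833). Among 17 nucleases, transporters and phospholipase D genes 0 stood at an unadjusted p under 0.05 in limma. The ribonuclease gene RNASE6 had the highest difference, 0.62 ± 0.32 (SE), chosen after its values were seen, and 0.37 without labelled array 2. The transporter relative SLC15A3 differed by 0.05, and the family members PLD1, PLD2, PLD5 and PLD6 by 0.00, 0.15, 0.06 and 0.05. PLD1 had the same value on all 5 arrays and PLD6 on 4, so their differences do not show a lack of change. SLC15A3 and PLD2 each held 1 value on 3 arrays, and PLD2 differed by 0.03 without labelled array 3.

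Downstream, 25 of 29 adaptor and kinase genes were measured, with a median of 0.05, and an unadjusted p under 0.05 was reached by 1 gene in each direction. LYN, a kinase of B-cell receptor signalling that also acts with CD180, read 7.62 and 7.49 in control and 8.02, 8.12 and 7.91 in the labelled arrays, a difference of 0.46 ± 0.08 (SE; limma adjusted p = 0.833). DOCK2, an activator of the GTPase RAC, differed by -0.27 ± 0.06 (SE; limma adjusted p = 0.833). MYD88, the adaptor shared by most Toll-like receptors, differed by 0.33 ± 0.12 (SE) with its groups apart and was chosen after its values were seen. The 7 other interferon regulatory factors measured differed by -0.11 to 0.13. The 21 response genes, such as NF-kappaB feedback genes and cytokines, had a median of -0.01, with 0 at an unadjusted p under 0.05 in limma and a range from -0.36 (TNFAIP3) to 0.49 (NFKBIA). Without labelled array 2 these genes differed by -0.57 and 0.25.

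**Figure D4:**
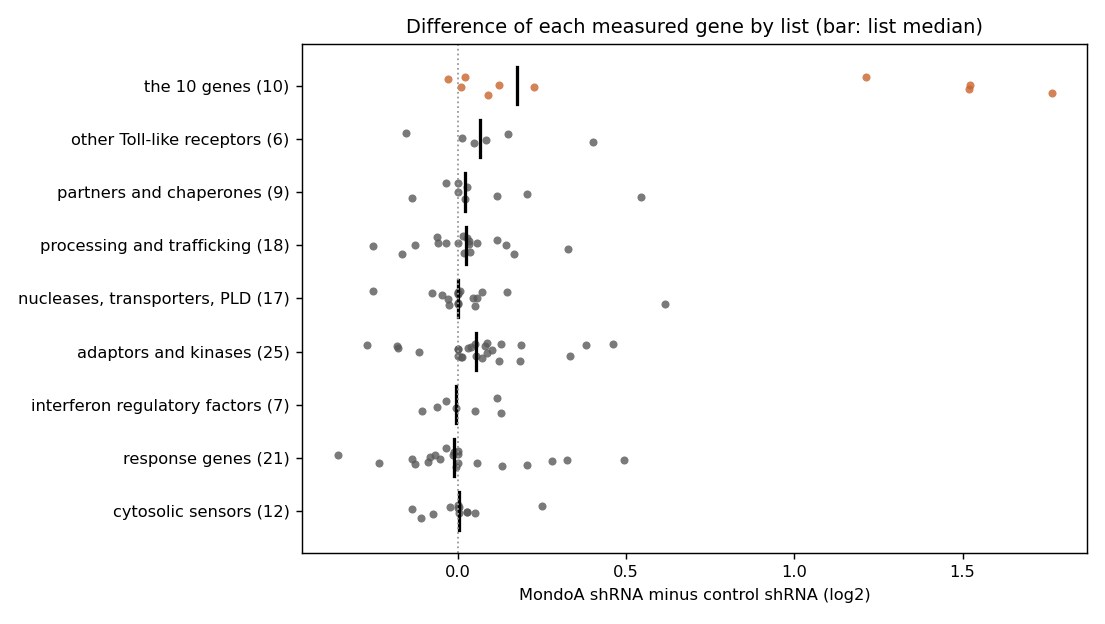
Difference of each measured gene (MondoA shRNA minus control shRNA, log2) for the 10 genes and the 8 pathway lists, with the number of genes in brackets and the list median as a bar. The 10 genes reach 1.76, and no gene of the other lists exceeds 0.62.

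Markers of other cell types were set beside the 4 higher genes. The mean of the plasmacytoid dendritic list was 3.43 to 3.44 over control and 3.42 to 3.45 over labelled arrays, that of monocytes and macrophages 3.26 to 3.30 and 3.27 to 3.41, and that of T and NK cells 3.36 to 3.42 and 3.30 to 3.36. None of these 26 genes had groups apart, against 4.85% of all genes apart higher and 5.18% apart lower. A gene with an equal value in a control and a labelled array cannot have groups apart. Every plasmacytoid dendritic marker measured had such a tie, as had several markers of monocytes and macrophages. The count of none was thus in part fixed by ties, and nothing is read from it. The B-precursor list read 8.65 to 8.72 in control and 8.49 to 8.73 in the labelled arrays, with groups apart in 6 of 12 genes, 2 higher and 4 lower, beside the same shares of all genes. CD79A, a B-cell receptor subunit, at 0.91, and DNTT, a polymerase of early lymphocyte precursors, at -1.19, had the largest differences there and were chosen after their values were seen. The part of these B-precursor genes in the values of CD180, LY86, TASL and PLD4 was not tested.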

How the data were processed

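Expression in 5 Nalm6 clones was measured on arrays labelled from 200 ng of RNA. Per the submitters' processing notes, the authors made the deposited log2 values with RMA in Affymetrix Expression Console 1.1, which corrects background, equalises the arrays and summarises the probes of each probe set. The base of the logarithm is not given in the sources used here and was taken as 2, as RMA gives. In the deposited values, 54.0% of genes had an equal value in at least 3 arrays.

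Of 33297 probe sets, the 19460 with exactly 1 symbol were used, of which 19429 matched RefSeq by Entrez number. The probe set with the highest mean was kept, which left 18417 genes. All genes were compared with limma 3.58.1 in R 4.3.3 (two-sided, Benjamini-Hochberg adjustment, threshold 0.05). The step was checked on simulated data without ties, so the check does not cover the equal values seen in the deposited data. The genes described, the pathway and marker lists were chosen with earlier results of these data known. From each pathway list the up to 3 genes with the lowest unadjusted p, if under 0.05, were named. For the 3 genes of largest difference, the 3 most alike in profile were named, and from each marker list the highest and the lowest gene. Any other gene is named as a choice made with its values in view. Alternatives left out each array, blocked on the replicate number, normalised or centred the arrays again, averaged probe sets, kept brighter genes, or changed or dropped the moderation. Promoters came from RefSeq on GRCh38.p14. The number of arrays limits the precision.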

Additional observations from a re-analysis of the deposited data

How the results depend on the processing

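The limma count of 0 genes past the adjusted threshold (687 at an unadjusted p under 0.05) became 2 after a further quantile normalisation (1103 unadjusted), 2 after centring each array (786), 3 when variances were not moderated (472) and 0 to 752 with 1 array left out, the high values being 752 without control array 1 and 454 without control array 2. The pathway count of 4 genes at an unadjusted p under 0.05 became 8 after quantile normalisation, 1 with the replicate block and 4 to 8 with 1 array left out. The replicate numbers are shared only as numbers, deviations of equally numbered clones correlated at -0.31 and -0.24 over 9208 genes, and that fit sets labelled array 3 aside. The 1 gene under the block was HSP90B1, so none of DOCK2, HPS4, LYN and TLR3 was kept there. That fit leaves less information on the spread and pairs clones by number alone, so the loss is not read as a result about these genes. Over 90 values of the 10 genes under alternatives, 85 moved by less than the pooled SD between clones and 5 by more. Leaving out 1 labelled array cannot move a difference by that SD. The block repeats the values found without labelled array 3, and averaging probe sets changes only UNC93B1. The count of 85 was thus in large part fixed in advance, and no stability is read from it. The 5 larger moves were in IRF5 (0.01 to 0.17 without a control array) and UNC93B1 (0.04 to 0.20 without a control array, and -0.01 as the average of its probe sets). With 1 array left out, the difference ran from 1.34 to 1.75 for CD180, 0.94 to 1.44 for LY86, 1.54 to 1.99 for TASL and 1.41 to 1.64 for PLD4. The median of the 10 genes ran from 0.14 to 0.24. Detection above background was not assessed, which limits TLR7, TLR9 and IRF5.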

Other observations

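Sensors of nucleic acids in the cytosol were read as a neighbouring system. Of 13 such genes 12 were measured, with a median difference of 0.00, and in limma 0 reached an unadjusted p under 0.05. CGAS, the enzyme that makes the messenger for STING from cytosolic DNA, had the largest difference and was chosen after its values were seen. It read 5.16 and 5.03 in control and 5.24, 5.58 and 5.21 in the arrays labelled MondoA shRNA, a difference of 0.25 ± 0.15 (SE), and 0.13 without labelled array 2. MAVS, the adaptor of the RNA branch, and ZBP1 had the same value on all 5 arrays, and STING1 and IFIH1 on 4 of them, so their differences of 0.00 are ties and do not show a lack of change. RIGI, a sensor of viral RNA, differed by -0.11. Without labelled arrays 1, 2 and 3 in turn it differed by 0.05, -0.22 and -0.17.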
